A study of Mus musculus with 6 samples.

Results

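The mitochondrial ribosomal protein genes were taken as all genes whose symbol in the array annotation is Mrpl or Mrps followed by a digit. The rule found 78 genes, of which 76 were measured here: 47 genes of the large subunit (Mrpl) and 29 of the small subunit (Mrps), among 18193 genes in all. Mrpl30 and Mrpl53 lay only on probe sets annotated to several genes and were not analysed here. Each gene was read from 1 probe set, the one with the highest mean over the 6 arrays.

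Expression was measured in CT26 cells, a colon carcinoma line from BALB/c mice that is grown in culture and transplanted into that strain. The shSep15 group (3 arrays) held cells transfected with pU6-m3, a plasmid with a U6 promoter, carrying a hairpin against Sep15, and the control group (3 arrays) held cells transfected with the empty pU6-m3 plasmid. Sep15, now named Selenof, encodes a selenocysteine-containing protein of the endoplasmic reticulum. Only 1 hairpin was used, directed at a 19-base stretch of the Sep15 cDNA (acagaagagttccatttaa, chromosome 3), and whether clones or pools of cells were used is not stated. Each array of a group had its own mRNA sample. Nothing in the labels says that the cultures were separate, so the p-values measure only the spread between these samples, which may be technical.

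The mitochondrial ribosome translates the few mRNAs of the mitochondrial genome, which encode core subunits of the respiratory chain and of ATP synthase. Its rRNAs come from mitochondrial DNA, but all of its proteins are encoded in the nucleus, made in the cytosol and imported. Some of these proteins descend from those of bacterial ribosomes and the others are found in mitochondria only. The small subunit decodes the mRNA, and the large subunit joins the amino acids and guides the growing chain toward the inner membrane.

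The targeted gene was low in every library of the hairpin group. The Selenof probe set read 9.34, 9.59 and 9.50 log2 units on the shSep15 arrays, against 12.41, 12.44 and 12.35 on the control arrays, a log2 difference of -2.92 (SE 0.08), or 13.2% of control (limma adjusted p = 2.43e-07). Its other probe set lay below background on all arrays (means 4.70 in shSep15 and 4.71 in control). Array medians ran from 5.83 to 5.87, and each array's mean correlation over probe sets was 0.993 to 0.995 with its own group and 0.977 to 0.979 with the other. Of 10 colon epithelial markers, 5 were near background in both groups, including Cdh1 (4.01 in shSep15 and 4.03 in control), and 3 were lower in shSep15 (Krt18, Krt20 and Lgals4). Krt18 and Lgals4 lay under background in shSep15 (4.48 and 5.84) but not in control (6.65 and 6.85). Epcam read 7.55 in shSep15 and 7.59 in control. The summed log2 values of these 10 markers ran from 54.2 to 56.2 on shSep15 arrays and from 60.3 to 61.9 on control arrays. Of 7 leukocyte markers 3 were lower (Cd68, Lyz2 and Itgam) and none higher. Near background in both groups were 3, including Ptprc (4.23 in shSep15 and 4.14 in control) and Itgam (4.61 and 4.98). Cd68 read 7.47 in control and lay just under background in shSep15, a log2 difference of -1.48 (limma adjusted p = 0.000297). Lyz2 read 6.58 in shSep15 and 7.05 in control. The sums of the 7 leukocyte markers ran from 40.2 to 41.3 on shSep15 arrays and from 42.0 to 43.4 on control arrays. Of 5 endothelial markers Vwf was lower, with sums of 25.7 to 26.0 in shSep15 and 26.5 to 27.7 in control. Vwf was under background in shSep15 (4.62) and close to it in control (6.07). Of 6 fibroblast markers 3 were higher (Col1a1, Col1a2 and Pdgfra) and 2 lower (Col3a1 and Dcn), with sums of 48.8 to 51.4 in shSep15 and 50.3 to 51.6 in control. The part of such marker changes in the results for ribosomal protein genes was not tested.

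Across the mitochondrial ribosomal protein genes, increases were more frequent than decreases in shSep15 cells. Of the 76 genes, 24 (31.6%) were higher and 6 (7.89%) lower at a limma adjusted p under 0.05, and 46 did not pass. All 76 lay above the background level, and of the 10876 genes above that level 19.3% were called higher and 19.8% lower. Over all 18193 genes the shares were 12.2% and 12.8%. The median difference of the 76 genes was 0.09 on the log2 scale (quartiles -0.03 and 0.33), against 0.01 for genes above background. Genes whose mean lay in the same range as that of the 76 had a median of 0.007, with 24.0% called higher and 23.4% lower. For 34 of the 76 genes every shSep15 array was above every control array, and for 14 every shSep15 array was below. The remaining 28 overlapped. Genes above background gave 27.9% above and 27.2% below. Of the 6196 genes with a mean in the same range as the 76, 2023 were fully above and 1957 fully below. In these cultures a change in the make-up of the cells and a change in RNA per cell cannot be told apart, and normalization between arrays sets their distributions alike.

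**Figure D1:**
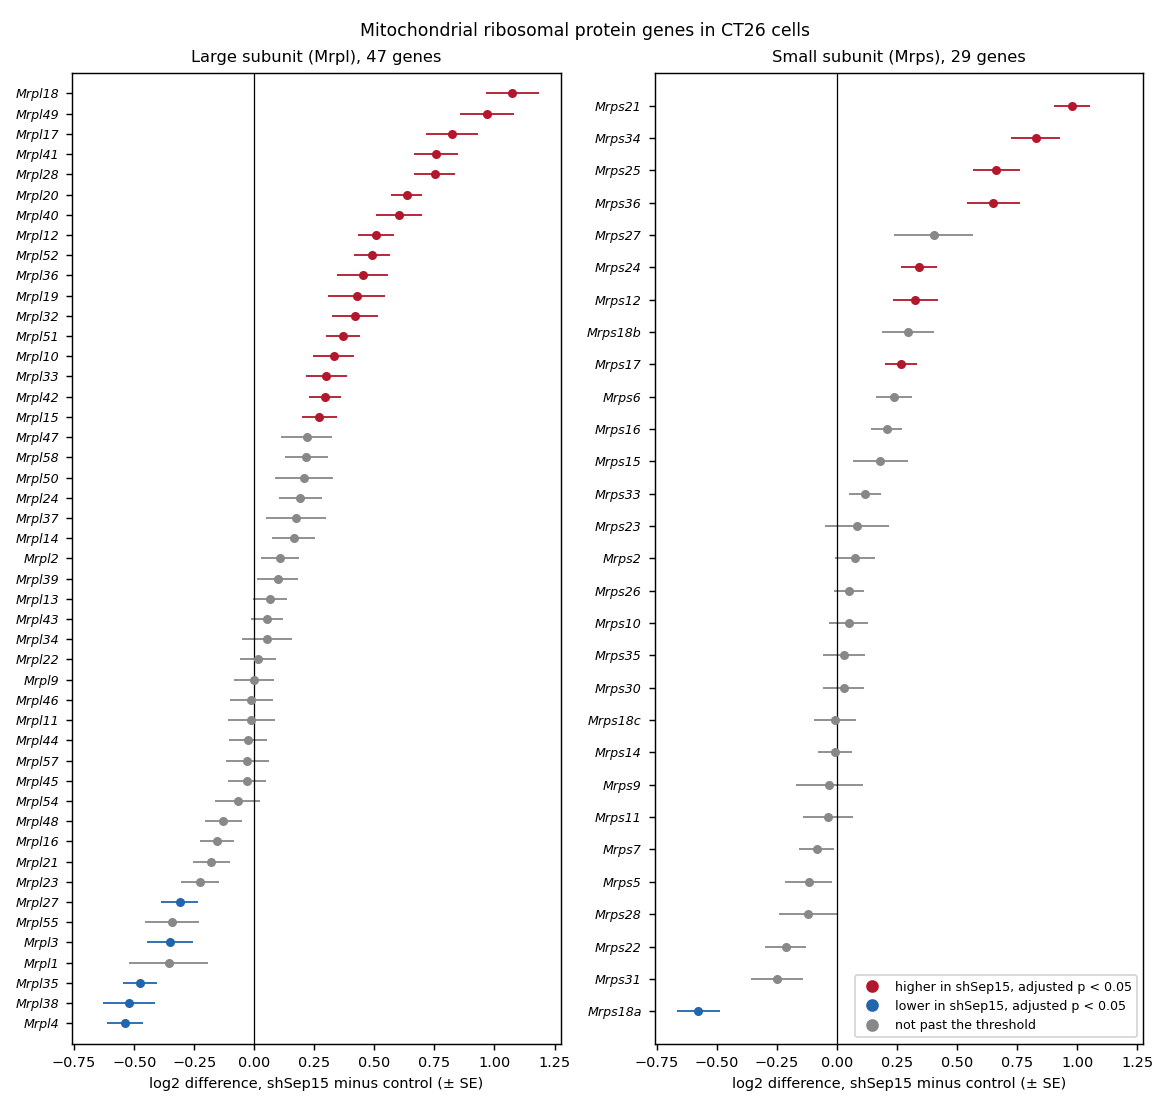
Log2 difference (shSep15 minus control, horizontal axis, bars ± SE) of each of the 76 genes, with the large subunit on the left and the small subunit on the right. Red points are the 24 genes called higher, blue points the 6 called lower, and grey points the 46 that did not pass the threshold.

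The differences were modest in size. The genes called higher differed by 0.27 to 1.07 log2 units (1.20-fold to 2.11-fold), and Mrpl18 alone exceeded a log2 difference of 1. The genes called lower stood at 0.670 to 0.806 of the control level. Relative to the control mean of each gene, the median over the 76 genes was 0.14, 0.07 and 0.10 on the shSep15 arrays, against 0.00, 0.05 and -0.04 on the control arrays. The shSep15 medians were all above the control medians, and the lowest of them lay close to the highest control median. For single genes the SD between arrays had a median of 0.08 in shSep15 and 0.09 in control.

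**Figure D2:**
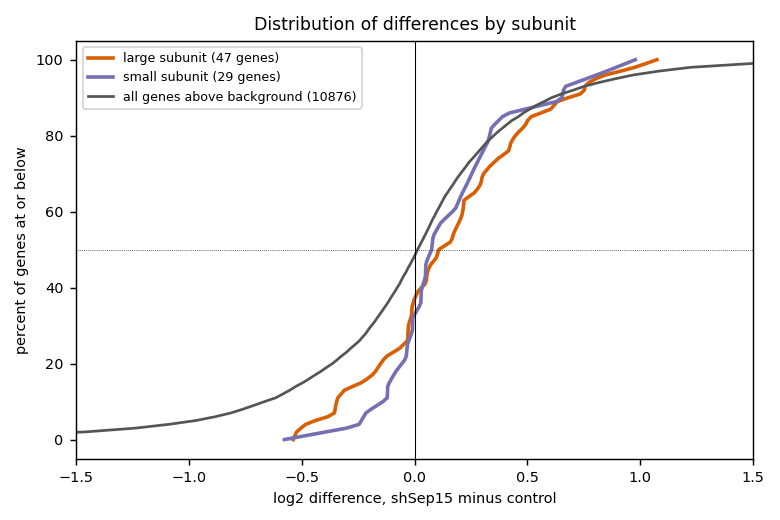
Cumulative share of genes (vertical axis, percent) at or below each log2 difference (horizontal axis, shSep15 minus control) for the large subunit (47 genes), the small subunit (29 genes) and all 10876 genes above background. The curves of both subunits cross 50% right of 0, at 0.11 and 0.08, and that of all genes at 0.01.

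The promoters of 5 genes with large differences are shown. Ribosomal protein genes of mitochondria are known for binding sites of NRF1, GABP and YY1 near their starts. Of the 5 genes, only Mrpl18 and Mrpl49 had a gene that starts within 1000 bases on the opposite strand (Tcp1 and Fau). Each window holds 300 bases, most of them before the RefSeq start in assembly GRCm38.p6, written 5′ to 3′ on the strand of the gene. Capitals mark matches on either strand to 3 short motifs: GCGCANGCG for NRF1, CCGGAAG for GABP and AAGATGGC for YY1. Mrpl18 (chr17:12916042-12916341, minus strand) holds 1 GABP motif. Mrps21 (chr3:95871465-95871764, minus strand) holds 1 NRF1 and 1 GABP motif, both on the opposite strand. Mrpl49 (chr19:6057706-6058005, minus strand) holds 1 YY1 motif. Mrps18a (chr17:46110754-46111053, plus strand), a gene called lower, holds 1 GABP and 1 YY1 motif, and Mrpl35 (chr6:71823735-71824034, minus strand), also called lower, holds 1 YY1 motif.
Mrpl18: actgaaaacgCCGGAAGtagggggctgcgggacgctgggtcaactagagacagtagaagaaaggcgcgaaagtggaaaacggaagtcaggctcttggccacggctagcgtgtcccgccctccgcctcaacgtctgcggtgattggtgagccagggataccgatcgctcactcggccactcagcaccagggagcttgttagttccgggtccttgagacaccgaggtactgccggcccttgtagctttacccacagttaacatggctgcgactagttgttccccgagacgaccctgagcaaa
Mrps21: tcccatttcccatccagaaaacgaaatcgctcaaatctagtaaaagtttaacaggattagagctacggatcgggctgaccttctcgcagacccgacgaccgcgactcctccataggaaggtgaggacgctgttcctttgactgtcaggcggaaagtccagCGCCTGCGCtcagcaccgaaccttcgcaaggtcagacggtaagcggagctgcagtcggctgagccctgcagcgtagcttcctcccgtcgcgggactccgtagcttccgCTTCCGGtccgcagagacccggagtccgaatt
Mrpl49: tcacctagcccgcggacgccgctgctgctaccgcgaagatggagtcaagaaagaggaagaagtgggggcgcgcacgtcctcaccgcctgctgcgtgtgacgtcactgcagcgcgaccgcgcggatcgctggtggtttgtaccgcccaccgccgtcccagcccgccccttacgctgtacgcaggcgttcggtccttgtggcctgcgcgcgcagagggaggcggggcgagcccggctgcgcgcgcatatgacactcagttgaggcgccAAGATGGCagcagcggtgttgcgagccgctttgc
Mrps18a: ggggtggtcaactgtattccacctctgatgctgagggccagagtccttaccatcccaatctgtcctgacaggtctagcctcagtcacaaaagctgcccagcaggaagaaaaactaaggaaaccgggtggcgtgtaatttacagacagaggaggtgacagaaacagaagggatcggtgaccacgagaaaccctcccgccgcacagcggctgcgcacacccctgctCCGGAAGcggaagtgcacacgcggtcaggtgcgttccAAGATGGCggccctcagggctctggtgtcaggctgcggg
Mrpl35: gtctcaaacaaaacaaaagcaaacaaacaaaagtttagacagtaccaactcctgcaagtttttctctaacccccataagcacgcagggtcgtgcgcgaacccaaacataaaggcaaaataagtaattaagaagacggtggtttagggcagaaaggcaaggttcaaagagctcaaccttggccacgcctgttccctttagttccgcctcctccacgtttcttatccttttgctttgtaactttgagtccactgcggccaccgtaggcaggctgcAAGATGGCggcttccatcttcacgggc

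Windows were at hand for 67 of the 76 genes (73 windows, since Mrpl48, Mrpl2 and Mrps16 have several). The NRF1 motif occurred in 20.5% of these windows, the GABP motif in 34.2% and the YY1 motif in 16.4%. In windows of genes above background the shares were 13.2%, 17.7% and 4.53%, and in all promoter windows of the same length 6.25%, 8.86% and 2.75%. Among the 21 windows of genes called higher, 5 held the NRF1 motif, 7 the GABP motif and 6 the YY1 motif. Among the 4 windows of genes called lower, 0 held the NRF1 motif, 3 the GABP motif and 2 the YY1 motif. Among the 48 windows of genes not called, the counts were 10, 15 and 4. These motifs are letter matches chosen with the results known, and a window without one says only that these letters are not in it.

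In the large subunit, 17 of 47 genes were higher in shSep15 cells, 5 were lower and 25 did not pass, with a median difference of 0.11. The shares were 36.2% higher and 10.6% lower, against 24.0% and 23.4% of genes with a mean in the same range as the 76. Mrpl18, whose bacterial counterpart binds 5S rRNA at the central protuberance, had the largest difference. It read 10.62, 10.36 and 10.34 log2 units in shSep15 cells, against 9.49, 9.34 and 9.27 in control cells. All shSep15 arrays were above all control arrays, with a log2 difference of 1.07 (SE 0.11), or 2.11-fold (limma adjusted p = 0.000155). Mrpl49, a protein found in mitochondrial ribosomes and not in bacterial ones, read 9.78, 9.55 and 9.56 in shSep15 cells, against 8.64, 8.56 and 8.78 in control cells. The groups were again fully apart, by 0.97 (SE 0.11; limma adjusted p = 0.000305). Mrpl17, the counterpart of bacterial L17, read 11.24, 11.14 and 11.10 in shSep15 cells and 10.10, 10.48 and 10.44 in control cells. Its difference was 0.82 (SE 0.11; limma adjusted p = 0.000646), and control array 1 was the lowest.

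Mrpl41, a mitochondria-specific protein, and Mrpl28, the counterpart of bacterial L28, both rose. Mrpl41 read 10.16, 10.25 and 10.17 in shSep15 cells, against 9.34, 9.55 and 9.42 in control cells, a log2 difference of 0.76 (SE 0.09; limma adjusted p = 0.0004). Mrpl28 read 10.61, 10.66 and 10.70 in shSep15 cells, against 9.86, 10.03 and 9.83 in control cells, a difference of 0.75 (SE 0.09; limma adjusted p = 0.000284). For both genes the groups did not overlap. Mrpl20, the counterpart of the bacterial assembly protein L20, had the smallest SE of the large subunit. It read 11.54, 11.49 and 11.53 in shSep15 cells and 10.81, 10.93 and 10.91 in control cells, a difference of 0.64 (SE 0.06; limma adjusted p = 0.00016). Mrpl40, a mitochondria-specific protein of the central protuberance, read 10.48, 10.43 and 10.30 in shSep15 cells, against 9.78, 9.93 and 9.69 in control cells, a difference of 0.60 (SE 0.10; limma adjusted p = 0.00182).

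Mrpl12 and Mrpl10, whose products belong to the stalk that recruits translation factors, were higher, while Mrpl11, the counterpart of bacterial L11 at the stalk base, differed by -0.01 (limma adjusted p = 0.957). Mrpl12, the counterpart of bacterial L7/L12 and in human cells a partner of the mitochondrial RNA polymerase, read 11.12, 11.11 and 10.96 in shSep15 cells, against 10.52, 10.58 and 10.57 in control cells. The difference was 0.51 (SE 0.07; limma adjusted p = 0.00121). Mrpl10, which anchors the stalk, read 10.61, 10.47 and 10.49 in shSep15 cells, against 10.13, 10.30 and 10.16 in control cells, a difference of 0.33 (SE 0.08; limma adjusted p = 0.0226). For both genes every shSep15 array was above every control array. The further genes called higher were Mrpl52 (0.49), Mrpl36 (0.45), Mrpl19 (0.43), Mrpl32 (0.42), Mrpl51 (0.37), Mrpl33 (0.30), Mrpl42 (0.29) and Mrpl15 (0.27). Of these, Mrpl32 encodes a protein whose precursor is cut by the m-AAA protease before it joins the ribosome.

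The 5 large-subunit genes called lower were Mrpl4, Mrpl38, Mrpl35, Mrpl3 and Mrpl27. Mrpl4, the counterpart of bacterial L4, which lines the exit tunnel, read 10.09, 10.12 and 10.04 in shSep15 cells, against 10.59, 10.69 and 10.58 in control cells. The log2 difference was -0.54 (SE 0.08; limma adjusted p = 0.00102). Mrpl38, a mitochondria-specific protein of the central protuberance, read 9.52, 9.31 and 9.23 in shSep15 cells, against 10.002, 9.855 and 9.763 in control cells, a difference of -0.52 (SE 0.11; limma adjusted p = 0.00883). Each of these genes had fully separate groups. Mrpl35, the counterpart of bacterial L35, read 11.14, 11.02 and 10.98 in shSep15 cells, against 11.60, 11.52 and 11.45 in control cells, a difference of -0.48 (SE 0.07; limma adjusted p = 0.00138). Mrpl3, the counterpart of bacterial L3, read 10.60, 10.48 and 10.63 in shSep15 cells, against 11.00, 11.03 and 10.73 in control cells. Its difference was -0.35 (SE 0.10; limma adjusted p = 0.0305), and control array 3 came closest to the shSep15 arrays. Mrpl27, whose bacterial counterpart reaches toward the peptidyl transferase centre, read 10.47, 10.42 and 10.54 in shSep15 cells, against 10.70, 10.86 and 10.79 in control cells, a difference of -0.31 (SE 0.08; limma adjusted p = 0.0204). Without shSep15 array 1 the counts for the large subunit were 11 higher and 3 lower, and 3 were lower without shSep15 array 2 or without control array 2.

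**Figure D3:**
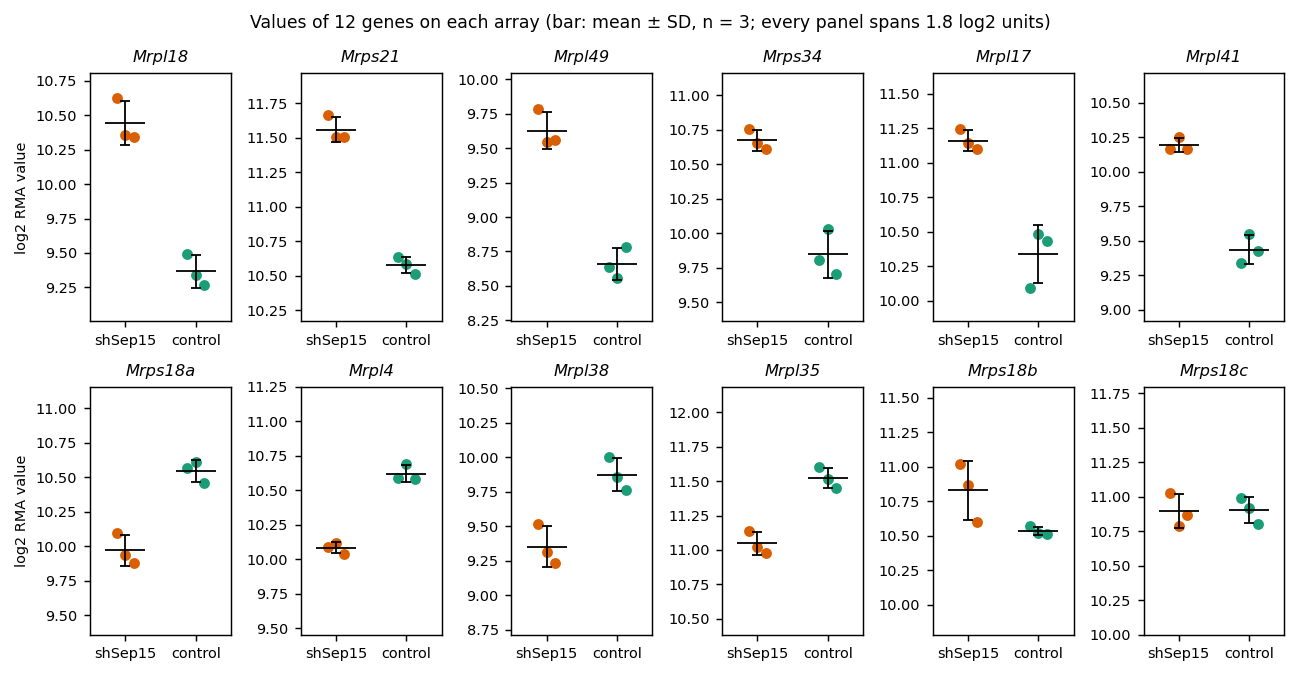
Log2 value on each array (vertical axis; points are arrays, bars mean ± SD, n = 3) for 12 genes, with shSep15 left of control in each panel. The upper row shows 6 genes called higher, such as Mrpl18 (10.34 to 10.62 in shSep15 and 9.27 to 9.49 in control), and the lower row 4 genes called lower and the paralogs Mrps18b and Mrps18c, which did not pass.

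Among the 25 large-subunit genes that did not pass, differences lay between -0.36 (Mrpl1) and 0.22 (Mrpl47). Mrpl1 read 8.37, 7.77 and 8.15 in shSep15 cells, against 8.62, 8.37 and 8.37 in control cells, where the groups overlapped (SE 0.16; limma adjusted p = 0.189). Mrpl55 read 8.62, 8.63 and 8.61 in shSep15 cells, against 8.83, 9.15 and 8.90 in control cells. Its groups were apart by a mean of -0.34 (SE 0.11), but the limma adjusted p was 0.0676. Mrpl13 read 11.16, 11.33 and 11.29 in shSep15 cells and 11.15, 11.24 and 11.19 in control cells, a difference of 0.07 (limma adjusted p = 0.615). Mrpl58, the peptidyl-tRNA hydrolase known as ICT1, differed by 0.22 (SE 0.09; limma adjusted p = 0.147).

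In the small subunit, 7 of 29 genes were higher in shSep15 cells, 1 was lower and 21 did not pass, with a median difference of 0.08. The share called higher, 24.1%, was near the 24.0% of genes with a mean in the same range as the 76, and the share called lower was 3.45%, against 23.4% of those genes. Mrps21, the counterpart of bacterial S21, had the lowest adjusted p of all 76 genes. It read 11.66, 11.50 and 11.51 log2 units in shSep15 cells, against 10.63, 10.59 and 10.51 in control cells. The groups lay far apart, with a log2 difference of 0.98 (SE 0.07), or 1.97-fold (limma adjusted p = 2.93e-05). Mrps34, a mitochondria-specific protein, read 10.76, 10.65 and 10.61 in shSep15 cells, against 9.81, 10.03 and 9.70 in control cells, a difference of 0.83 (SE 0.10; limma adjusted p = 0.000444). Mrps25, also mitochondria-specific, read 9.75, 9.59 and 9.66 in shSep15 cells, against 9.06, 9.06 and 8.89 in control cells, a difference of 0.66 (SE 0.10; limma adjusted p = 0.00135). In all of these genes every shSep15 array was above every control array. Mrps36, a gene named for the ribosome whose product was later assigned to the 2-oxoglutarate dehydrogenase complex, read 9.62, 9.65 and 9.68 in shSep15 cells, against 8.85, 8.96 and 9.19 in control cells. Its difference was 0.65 (SE 0.11; limma adjusted p = 0.00262).

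Smaller increases were found for Mrps24 (0.34), the counterpart of bacterial S3, Mrps12 (0.33), the counterpart of the decoding-centre protein S12, and Mrps17 (0.27), the counterpart of bacterial S17. Mrps12 read 10.07, 9.99 and 9.94 in shSep15 cells, against 9.60, 9.81 and 9.61 in control cells. Its groups did not overlap, and the limma adjusted p was 0.0396. Mrps16 (0.21; limma adjusted p = 0.0504) and Mrps6 (0.24; limma adjusted p = 0.0516), counterparts of bacterial S16 and S6, lay just outside the threshold. Mrps14 differed by -0.01, and Mrps11 by -0.04. Mrps27, a pentatricopeptide repeat protein, read 8.68, 8.36 and 8.30 in shSep15 cells, against 8.13, 8.27 and 7.74 in control cells, a difference of 0.40 with the largest SE of all 76 genes (0.16; limma adjusted p = 0.14). Relative to control means, the small-subunit median was 0.15, -0.01 and 0.04 on the shSep15 arrays, against 0.01, 0.05 and -0.05 on the control arrays, so that these medians overlapped. Without shSep15 array 1 the median difference of the small subunit was 0.01, and without control array 3 it was 0.03. For the large subunit the medians were 0.11, 0.10 and 0.11 on the shSep15 arrays, against -0.02, 0.05 and -0.03 on the control arrays. The difference between subunits was not tested.

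Mammals have 3 paralogs of bacterial S18, which gave unlike values here. Mrps18a was the only small-subunit gene by symbol that was called lower, although mammalian structures place its protein in the large subunit. It read 10.10, 9.94 and 9.88 in shSep15 cells, against 10.57, 10.62 and 10.46 in control cells, a log2 difference of -0.58 (SE 0.09; limma adjusted p = 0.00173). Mrps18b read 11.02, 10.87 and 10.60 in shSep15 cells, against 10.57, 10.52 and 10.51 in control cells. All shSep15 arrays of Mrps18b were above the control arrays, by a mean of 0.30 (SE 0.11), but the limma adjusted p was 0.0923. Mrps18c read 11.03, 10.79 and 10.87 in shSep15 cells and 10.99, 10.92 and 10.80 in control cells, with overlapping groups and a difference of -0.01 (SE 0.09; limma adjusted p = 0.971). Differences between the paralogs' responses were not tested. With Mrps18a and Mrps30, whose protein also sits in the large subunit, moved to the large subunit, 0 small-subunit genes were called lower and 6 large-subunit genes were.

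Genes called in each direction were found both among proteins with a bacterial counterpart and among mitochondria-specific ones. Of 47 genes with a bacterial counterpart 15 were higher and 5 lower, with a median of 0.08, and of 28 mitochondria-specific genes 8 were higher and 1 lower, with a median of 0.09. Mrps36 was not classed. Mrps18a (lower), Mrps18b and Mrps18c, paralogs of bacterial S18, were all counted as having a bacterial counterpart. Genes with a mean in the same range as the members gave 24.0% higher and 23.4% lower. The difference between these classes was not tested.

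Several probe sets measured the same gene in 42 of the 76 cases, and 32 genes had another probe set above background. Of the 30 called genes 13 had one, and in 8 of these at least 1 further probe set was called in the same direction. In 5 of them all further probe sets above background were: Mrpl41, Mrpl49, Mrpl52, Mrps24 and Mrps25. No called gene had a probe set above background that was called in the opposite direction. Calls were not repeated by any further probe set above background for Mrpl19, Mrpl27, Mrpl35, Mrpl38 and Mrpl51. The other probe set of Mrpl35 differed by -0.03 (limma adjusted p = 0.932), that of Mrpl51 by 0.03 (limma adjusted p = 0.934) and that of Mrpl38 by 0.13 (limma adjusted p = 0.591), opposite in sign to the chosen one. These other probe sets were dim, with group means of 6.74 to 6.92 against a background level of 6.02. The chosen probe sets of these genes had group means of 9.35 to 11.59. For Mrpl3, Mrpl15 and Mrpl28 at least 1 further probe set was called in the same direction and at least 1 was not called. Mrpl47 was not called on its chosen probe set but was lower on another, which read 6.43, 6.01 and 6.02 in shSep15 cells, against 7.23, 6.79 and 6.65 in control cells (-0.74, SE 0.18; limma adjusted p = 0.0182). The chosen probe sets of Mrpl19, Mrpl37, Mrpl38, Mrps6, Mrps12, Mrps24 and Mrpl15 have a suffix (_s_at or _x_at) that marks probes shared with other transcripts. Their values may hold signal from those.

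The calls of 11 genes did not pass once 1 array or another was left out: Mrpl3, Mrpl10, Mrpl15, Mrpl19, Mrpl27, Mrpl32, Mrpl33, Mrpl36, Mrps12, Mrps17 and Mrps24. Their limma adjusted p without that array was at most 0.129. Leaving out shSep15 array 1 gave 16 higher and 4 lower among the 76 genes. The calls of 14 genes, 12 higher and 2 lower, stood under every alternative fit, normalization, filter and probe set rule and with each array left out: Mrpl12, Mrpl17, Mrpl18, Mrpl20, Mrpl40, Mrpl41, Mrpl49, Mrpl52, Mrps21, Mrps25, Mrps34 and Mrps36 were higher, and Mrpl4 and Mrps18a were lower. Of these, Mrpl41, Mrpl49, Mrpl52 and Mrps25 have another probe set above background, so taking the second brightest probe set could not change the others. Mrpl4, Mrpl12, Mrpl18, Mrpl20, Mrpl40, Mrps18a, Mrps34 and Mrps36 have only 1 probe set here. The mean of all probe sets therefore left their values as they were. The calls of Mrpl28, Mrpl35, Mrpl38, Mrpl42 and Mrpl51 were lost only under a probe set rule. Leaving out whole chromosomes removes Mrps21, Mrpl20, Mrpl18, Mrps34 and Mrps18a and was no test of their calls.

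Medians of all genes above background differed between chromosomes, so each gene was set beside its chromosome. The median difference of all such genes was 0.26 on chromosome 3, 0.17 on chromosome 17 and 0.16 on chromosome 4. On chromosome 18, which holds 0 of the 76 genes, it was -0.30. Of the 76 genes, 17 lie on those chromosomes, of which 5 were higher and 1 lower (median 0.19). Of the 59 genes elsewhere 19 were higher and 5 lower (median 0.05). After each chromosome's median was subtracted, the median over the 76 genes was 0.05 with 46 above 0. By subunit it was 0.04 for the 47 large-subunit genes (27 above 0) and 0.09 for the 29 small-subunit genes (19 above 0). The order of the subunit medians thus depended on this step. All 24 genes called higher then still had a positive difference, and all 6 called lower a negative one. This was no test of their calls, since the step could not change a sign. The smallest called differences were 0.265 and -0.310, while no chromosome median was above 0.263. No chromosome with any of the 76 genes had a median under -0.07. The 5 genes on chromosome 13 all had positive differences, 3 of them called (Mrpl32, Mrpl36 and Mrps36), with a median of 0.42 where all genes of that chromosome gave 0.07. The 3 genes on chromosome 9 all had negative differences, 2 of them called (Mrpl3 and Mrpl4), with a median of -0.35 where all genes of the chromosome gave -0.02. Differences were also all positive on chromosomes 4 (4 genes, median 0.19), 16 (3 genes, median 0.24) and 15 (1 gene). On chromosome 17 they were positive for 7 of 8 genes. Negative differences were more frequent on chromosomes 1 (3 of 4), 7 (4 of 6) and 19 (3 of 5). The share called among all genes of each chromosome is not given here. The part of gene copy number or of neighbouring genes in these values was not tested.

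Many of these genes start close to a gene on the opposite strand. In assembly GRCm38.p6, 26 of the 67 genes with a promoter window had such a start within 1000 bases (overlaps of up to 100 bases included), and in 22 of them the neighbour was above background. Mrpl46 and Mrps11 are each other's neighbour, 42 bases apart, and neither was called. These neighbours were looked up after the results were known. Of the 22 neighbours 7 were called higher and 3 lower, where genes above background gave 19.3% and 19.8%, and the rate among other opposite-strand pairs was not computed. In 7 pairs both genes were called: 4 pairs were higher together, 0 lower together and 3 in opposite directions. In 1 further pair only the ribosomal protein gene was called (Mrps12, with Sars2), and in 3 only its neighbour (Ska3 beside Mrpl57, Helq beside Mrps18c and Ptcd2 beside Mrps27).

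The pairs that were higher together were unlike in size. Tcp1, a subunit of the cytosolic chaperonin that starts 238 bases from Mrpl18, was higher by 0.31 (limma adjusted p = 0.000463), beside 1.07 for Mrpl18. Psma2, a proteasome subunit, was higher by 0.48 beside 0.42 for Mrpl32. Hira, a histone chaperone, was higher by 0.50 beside 0.60 for Mrpl40, and Ncapd2, a condensin subunit, by 1.02 beside 0.37 for Mrpl51. In the pairs with opposite calls, Fau, which encodes a cytosolic ribosomal protein fused to a ubiquitin-like protein and starts 192 bases from Mrpl49, was lower by a mean of -0.14 (limma adjusted p = 0.0218), beside 0.97 for Mrpl49. Pnpla7 was lower (-0.57) beside Mrpl41 (0.76), and Eme1, a subunit of a structure-specific endonuclease, was higher (0.97) beside Mrpl27 (-0.31).

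**Figure D4:**
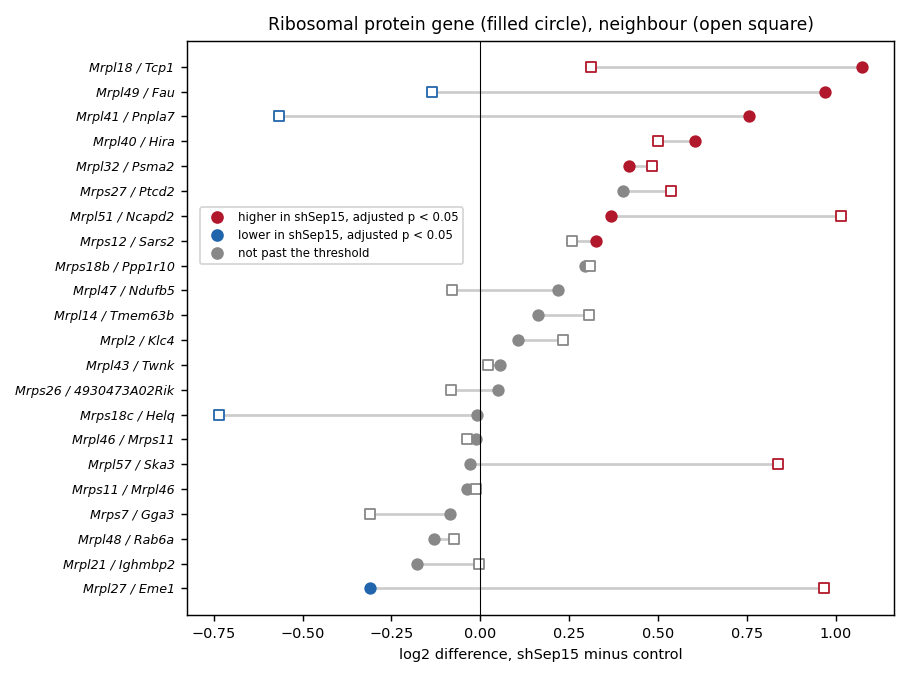
Log2 difference (shSep15 minus control, horizontal axis) of each ribosomal protein gene (filled circle) and of the gene that starts on the opposite strand within 1000 bases (open square), for the 22 genes whose neighbour was above background. Colours mark the limma call. In 4 pairs both points are red, and in 3 pairs one is red and one blue.

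Of 4 ribosomal protein genes with other names, 3 were higher in shSep15 cells and 0 lower, and Aurkaip1 was not analysed here. Genes above background gave 19.3% higher and 19.8% lower. Dap3, a GTP-binding protein of the small subunit, read 11.22, 11.28 and 11.21 in shSep15 cells, against 10.65, 10.94 and 10.90 in control cells, a log2 difference of 0.41 (SE 0.09; limma adjusted p = 0.00914). Ptcd3, a pentatricopeptide repeat protein of the small subunit, was higher by 0.35 (SE 0.08; limma adjusted p = 0.0114), and Gadd45gip1, of the large subunit, by 0.53 (SE 0.11; limma adjusted p = 0.00655). Chchd1, of the small subunit, differed by 0.02 (limma adjusted p = 0.891).

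Of 24 genes for assembly and rRNA handling 6 were higher and 5 lower, with a median of -0.08, which is near the 19.3% higher and 19.8% lower among genes above background. Nsun4 (0.59) and Mterf4 (0.58), which form a complex that acts in ribosome assembly, were both higher, as were Mrm2 (0.72), a methyltransferase of the large rRNA, and Tfb1m (0.53), which dimethylates the small rRNA. Noa1 (0.62) and Mpv17l2 (0.60) also rose. Mterf3 fell most in this list. It read 10.30, 10.07 and 10.23 in shSep15 cells, against 11.19, 10.92 and 10.90 in control cells, with no overlap (-0.80, SE 0.10; limma adjusted p = 0.000549). Eral1 (-0.64), a chaperone of the small rRNA, Rpusd4 (-0.60), a pseudouridine synthase, the helicase Ddx28 (-0.54) and Malsu1 (-0.44), a factor that binds the large subunit, were also lower. Without shSep15 array 3 only 3 were higher, and without shSep15 array 2 or control array 2 only 3 were lower.

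Of 14 genes listed as translation factors 4 were higher and 1 lower, with a median of 0.20. Among genes above background 19.3% were higher and 19.8% lower. Higher were Mtif2 (0.62), the initiation factor IF2 of mitochondria, Gfm1 (0.51), the elongation factor G1, and Tsfm (0.36), the exchange factor EF-Ts. Letm1 (0.38), an inner membrane protein that is in the list but is not itself a translation factor, was also higher. Tufm, the elongation factor EF-Tu, differed by 0.40 and did not pass (limma adjusted p = 0.0617). Mrrf, which recycles ribosomes after termination, read 8.99, 9.13 and 8.99 in shSep15 cells, against 9.75, 9.73 and 9.74 in control cells, a difference of -0.70 (SE 0.09; limma adjusted p = 0.000586). Without shSep15 array 1, without shSep15 array 3 or without control array 1, 1 factor was called higher, and without control array 3, 2 were higher and 2 lower.

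Of 16 genes for mitochondrial DNA and RNA, Mterf1a (0.66), a transcription termination factor, and Polg2 (0.62), the accessory subunit of the DNA polymerase, were higher, and Top1mt (-0.73), the mitochondrial topoisomerase, was lower. These calls, 2 higher and 1 lower, stand beside 19.3% higher and 19.8% lower among genes above background. The RNA polymerase Polrmt (-0.17; limma adjusted p = 0.354) and the packaging factor Tfam (-0.12; limma adjusted p = 0.609) did not pass. Without single arrays the count of higher genes was 0 to 3 and that of lower genes 1 to 2. It was 0 without shSep15 array 1, and 1 without shSep15 array 3 or control array 2, and 2 genes were lower without control array 2 or 3.

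Of 11 nuclear regulators linked to mitochondrial genes 1 was higher and 3 lower, with a median of -0.20. The shares among genes above background were 19.3% higher and 19.8% lower. Ppargc1b, a coactivator, was higher by 0.51 (limma adjusted p = 0.0259), a call lost without control array 3 or any single shSep15 array. Myc read 10.15, 9.82 and 10.39 in shSep15 cells, against 11.02, 11.34 and 11.10 in control cells, a log2 difference of -1.03 (SE 0.14; limma adjusted p = 0.000854). Tfe3, a factor of lysosomal and mitochondrial gene programmes, read 8.44, 8.61 and 8.62 in shSep15 cells, against 9.87, 10.05 and 10.11 in control cells, a difference of -1.45 (SE 0.11; limma adjusted p = 2.5e-05). The groups of both genes were far apart. Ppargc1a, a coactivator of respiratory genes, read 5.78, 5.57 and 6.03 in shSep15 cells, against 7.71, 7.18 and 7.02 in control cells. Its shSep15 mean of 5.79 lay under the background level of 6.02, so the size of its decrease is not exact (-1.51; limma adjusted p = 0.00056). Nrf1 (-0.03), Gabpa (-0.20) and Yy1 (0.34), which encode factors for the motifs shown in capitals above, did not pass.

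**Figure D5:**
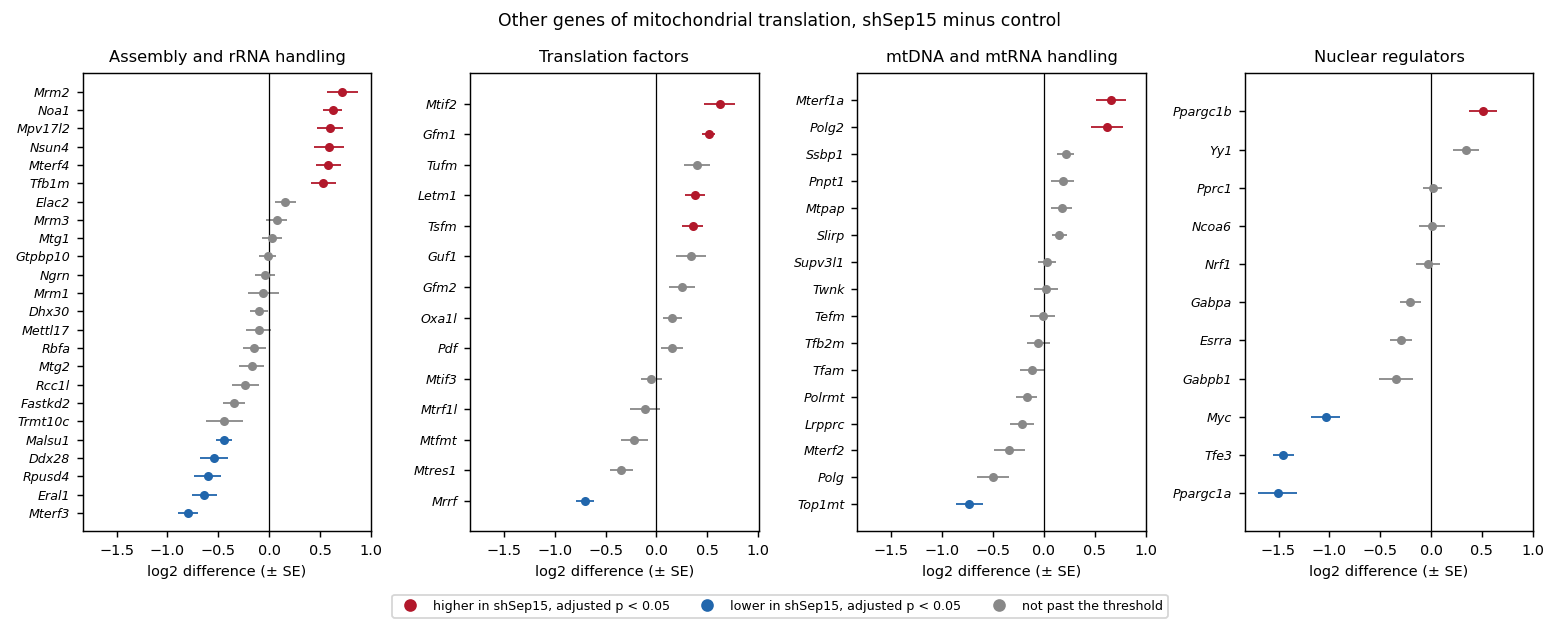
Log2 difference (shSep15 minus control, horizontal axis, bars ± SE) of 24 assembly and rRNA genes, 14 translation factors, 16 genes for mitochondrial DNA and RNA and 11 nuclear regulators. Red and blue points are genes called higher and lower, and the lowest are Ppargc1a (-1.51) and Tfe3 (-1.45).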

How the data were processed

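RNA from 6 CT26 samples was measured on Affymetrix Mouse430_2 arrays. Per the submitters' processing notes, the authors made the deposited log2 values with RMA, which corrects background, normalizes between arrays and summarises probes. Its version is not given in the sources used here. No value was changed before the fit, and they span 3.31 to 14.24. RMA values carry no depth, so the number of arrays limits the precision.

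The array holds 45101 probe sets. Without its 64 controls, 45037 were fitted with limma 3.58.1 under R 4.3.3, using lmFit and then eBayes with a trend on intensity. The two-sided test was adjusted by Benjamini-Hochberg over all of them, at 0.05. Differences are shSep15 minus control. The limma scripts were tested on simulated data. Gene names came from the platform annotation, updated through RefSeq genes of GRCm38.p6, and only probe sets with 1 symbol (34945) were used. Promoter sequences are RefSeq's, of GRCm38.p6. The background level, 6.02, is the 95th percentile over 80 probe sets of smell and pheromone receptor genes (olfactory, vomeronasal). A gene is near background where both group means lie under it.

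The genes and lists were chosen with earlier results of these data known, and no test was made over a list. Named genes are all members past the threshold, the 3 with the highest and the 3 with the lowest mean in each subunit, those whose other probe sets differ in call, the Mrps18 paralogs, all genes past the threshold in the related lists, and Selenof. Other named genes were chosen after their values were seen. Alternatives changed the fit, the normalization, the probe set, the filter, the subunit of 2 genes, the chromosomes kept and the arrays kept.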

Additional observations from a re-analysis of the deposited data

How the results depend on the processing

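Across all alternatives 16 to 26 of the 76 genes were called higher and 4 to 8 lower, and the median over the 76 genes was positive under each. Leaving out 1 array at a time gave 11 to 14 higher and 3 to 5 lower in the large subunit (median 0.0965 to 0.159). It gave 3 to 6 higher and 3 to 7 lower among assembly genes, 1 to 4 higher and 1 to 2 lower among translation factors, 0 to 3 higher and 1 to 2 lower among genes for mitochondrial DNA and RNA, and 0 to 1 higher among regulators. With the mean of all probe sets, 3 assembly genes, 2 translation factors and 2 genes for mitochondrial DNA and RNA were lower. With probe sets above background only, 2 translation factors and 2 genes for mitochondrial DNA and RNA were lower. Quantile normalization gave 2 translation factors lower and 2 regulators higher, and robust eBayes 2 genes for mitochondrial DNA and RNA lower. With the second brightest probe set 3 large-subunit genes and 2 genes for mitochondrial DNA and RNA were lower, and Mrpl38 reversed to 0.13. With Mrps30 and Mrps18a in the large subunit, 0 small-subunit genes were lower. Without chromosomes 3, 4, 17, 18 and X the large-subunit median was 0.052 and 0 small-subunit genes were lower. Mrps18c, near 0, ranged from -0.0747 to 0.0463 with 1 array left out and was positive without control array 1 (0.0367), shSep15 array 2 or shSep15 array 3 (0.0043). The cause of these shifts was not tested. Among single genes 396 results kept direction and call, 60 lost the call and 2 gained it. Replicate numbers did not consistently pair the arrays (correlations of same-numbered arrays 0.399, -0.201 and -0.055). Correlations of differently numbered arrays ran from -0.394 (shSep15 array 1 with control array 3) to 0.442 (shSep15 array 2 with control array 3). With the replicate block 23 of the 76 genes were higher and 6 lower, Mrps12 being lost, while 2 translation factors were lower and 2 regulators higher.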
